A study of Mus musculus with 30 samples.

Results

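The comparison described here sets *Mbd3* knockout (KO) neural progenitor cells that carry an MBD3 lacking its MBD domain (MBD3ΔMBD) against *Mbd3* KO progenitors that carry the full-length isoform MBD3a, and so asks what the MBD domain adds to MBD3. It was defined by construct and not by any measured value, and it takes 6 of the 24 RNA-seq libraries in a series of 30 samples. The 3 MBD3a libraries are numbered s07, s08 and s09 and the 3 MBD3ΔMBD libraries s10, s11 and s12. Wild-type (WT) and *Mbd3* KO progenitors, with 3 libraries each, are used below as reference points.

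All of these lines derive from one mouse embryonic stem cell (ESC) background, a cross of 129 and C57BL/6, and were harvested as neural progenitor cells (NPCs) on day 8 of a differentiation from stem cells. *Mbd3* had been cut by CRISPR-Cas9 with guides to exons 2 and 3 in both rescue lines as well as in the *Mbd3* KO. The rescue constructs carried a biotin tag, were driven by the strong CAG promoter and were placed by cassette exchange at the same genomic site in cells that express the biotin ligase BirA. Each library of these lines came from its own clone, so the spread within a line is a spread among clones. The residues removed in MBD3ΔMBD are not given in the sources used here.

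MBD3 is a subunit of NuRD, a complex that couples nucleosome remodelling by the CHD4 ATPase with histone deacetylation by HDAC1 and HDAC2. It shares its place in the complex with MBD2, and a NuRD particle holds one or the other. The MBD domain is the fold by which MBD1, MBD2 and MBD4 recognise methylated CpG. Mammalian MBD3 carries the same fold but has little preference for methylated DNA. NuRD is known in stem cells for restraining pluripotency genes so that cells can leave that state.

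To show where the domain lies, whatever the exact ends of the deletion, the protein encoded by the annotated transcript *Mbd3*-001 was aligned locally with 3 other proteins of the family. Mouse MBD3a has 285 residues in this annotation. MBD1 matched its residues 7 to 69, with 34 of 63 aligned residues identical (54.0%). MBD4 matched residues 11 to 64, with 28 of 54 identical (51.9%). MBD2 matched far beyond the domain, over residues 4 to 253, with 188 of 250 residues identical (75.2%). The part of MBD3 shared with MBD1 and MBD4 is therefore the N-terminal stretch, and the alignment runs on past it for MBD2 alone of these 3. The bases that code for residues 7 to 69 lie in exon 1 (mm9 chr10:79861867-79861958) and exon 2 (chr10:79858244-79858340) of *Mbd3*, both on the minus strand. The stretch of MBD4 that matched, its residues 73 to 128, is coded in exons 2 and 3 of *Mbd4* (chr6:115800636-115800715 and chr6:115799663-115799750, minus strand). Both are given from the reference genome, 5′ to 3′ on the coding strand with CpG in capitals, because they encode the domain under test and its counterpart in a methyl-CpG reader. They hold 13 CpG in 189 bases and 2 CpG in 168 bases.
Mbd3: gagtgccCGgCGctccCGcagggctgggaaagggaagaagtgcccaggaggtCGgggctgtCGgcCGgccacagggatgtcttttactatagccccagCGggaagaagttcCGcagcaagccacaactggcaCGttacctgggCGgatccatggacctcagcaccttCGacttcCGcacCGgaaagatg
Mbd4: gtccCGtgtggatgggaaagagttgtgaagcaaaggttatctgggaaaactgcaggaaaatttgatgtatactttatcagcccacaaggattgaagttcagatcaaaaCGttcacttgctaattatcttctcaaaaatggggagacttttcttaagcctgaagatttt

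The libraries held 29752461 to 32118099 counted reads in MBD3a and 27993858 to 43033788 in MBD3ΔMBD. Pairs of MBD3a libraries correlated at 0.979 to 0.985 across genes on the log2 scale, pairs of MBD3ΔMBD libraries at 0.981 to 0.991 and pairs across the lines at 0.970 to 0.990. Libraries of different lines were thus about as alike as libraries of one line. Neural progenitor markers summed to 846 to 914 CPM (counts scaled to library size) in MBD3a and to 792 to 996 CPM in MBD3ΔMBD, against 157 to 282 in the *Mbd3* KO. Markers that were under 1 CPM on average in both rescue lines were *T* and *Mixl1* of early mesoderm, *Sox10* of neural crest, *Elf5* of trophoblast, *Krt5*, *Krt14* and *Trp63* of epidermis and *Gfap* of astrocytes. Other markers of these types were present. In MBD3a and MBD3ΔMBD, marker sums reached 88.1 and 125 CPM for mesenchyme and 84.0 and 104 CPM for neural crest. They reached 117 and 92.2 CPM for epidermis, 37.3 and 23.8 CPM for trophoblast and 25.2 and 20.7 CPM for glia. Nearly all of the epidermis sum was *Cdh1*, which reached 117 and 91.4 CPM. Nearly all of the glia sum was *Mbp*, which reached 24.6 and 20.4 CPM. These 2 sums therefore rest on 1 gene each. Sums reached 50.5 and 42.3 CPM for visceral endoderm and 73.3 and 55.5 CPM for blood and endothelium. In bulk RNA, fewer cells of a type and less RNA per cell cannot be told apart.

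*Mbd3* itself (chr10:79855284-79862295, minus strand) was counted over the whole gene, so the endogenous transcript and the construct are pooled. It stood at 193, 168 and 198 CPM in the MBD3a libraries and at 423, 496 and 426 CPM in the MBD3ΔMBD libraries. WT libraries held 155, 149 and 157 CPM, and the *Mbd3* KO libraries held 34.3, 73.8 and 69.1 CPM of transcript from the cut gene. Both rescue lines lay above the KO, and every MBD3ΔMBD library lay above every MBD3a and WT library. The difference between the rescue lines was 1.27 on the log2 scale (SE 0.27, 95% interval 0.70 to 1.83), yet it did not pass after adjustment over all genes in edgeR's quasi-likelihood test (adjusted p = 0.392). It did pass when only these 6 libraries entered the edgeR fit (log2 difference 1.25, adjusted p = 0.0452) and in DESeq2 (1.26, adjusted p = 0.0230). A transcript without the domain offers fewer bases to count than a full-length one. The lines therefore differ both in the domain and in the level of *Mbd3* RNA, and these 2 differences cannot be told apart in any value below. The paper describes its MBD2 and MBD3 variants as expressed at comparable levels and shows protein blots of tagged variants in stem cells. The values here are RNA in progenitors, and protein was not measured in these libraries.

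**Figure D1:**
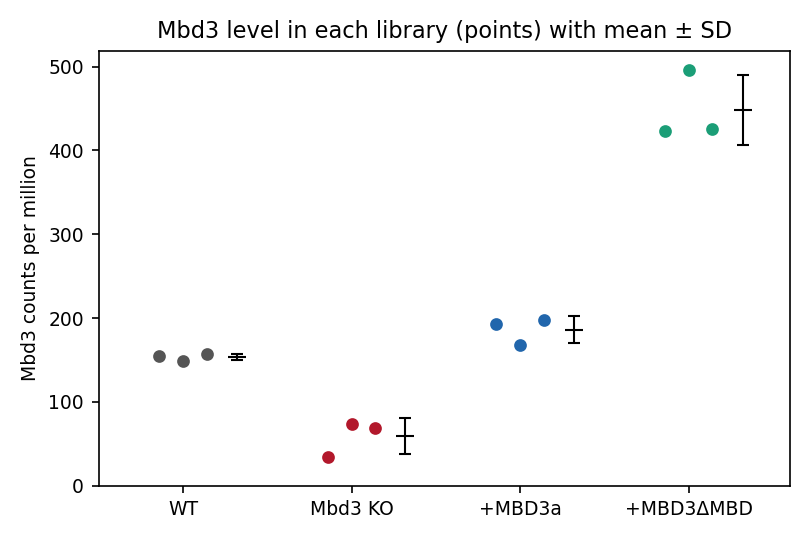
*Mbd3* RNA in CPM in each library of WT, *Mbd3* KO, MBD3a and MBD3ΔMBD progenitors, each point a library, with the mean and SD (n = 3) drawn beside each group. The MBD3ΔMBD libraries sit at 423 to 496 CPM, above the MBD3a libraries at 168 to 198 CPM.

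Across the transcriptome no gene was called between the lines. Of 25400 genes, 16582 had enough counts to test, and 0 (0%) met an adjusted p under 0.05 with a log2 difference over 1 in edgeR. At an unadjusted p under 0.05, called nominal from here on, were 650 genes (3.92%), of which 266 (1.6%) were higher and 384 (2.32%) lower in MBD3ΔMBD. That split was 162 higher and 472 lower with scaling by library size only, and 151 and 503 with upper-quartile scaling. DESeq2 called 12 genes and put 831 at nominal p. Its 6 higher genes were *Mbd3*, the histone genes *H1f4*, *H3c6*, *H3c13* and *H3c15* and the small nucleolar RNA *Gm22009*, and its 6 lower genes were *Uty*, *Ddx3y*, *Eif2s3y*, *Helz2*, *Shfl* and the protease gene *Prss41*. *H3c6*, *H3c13*, *H3c15*, *Gm22009* and *Prss41* are named because DESeq2 called them, after their values were seen. The 3 libraries of one line lay wholly above or below the 3 of the other for 2193 genes (13.2%). For scale, *Mbd3* KO against WT gave 5609 called genes (33.8%) in the same fit.

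How small a difference these libraries could have shown is seen from the intervals. The median log2 difference over all tested genes was 0.001 and the median size, without sign, was 0.148. The 95% interval of a gene reached 0.459 to either side at the median. For 11250 genes (67.8%) the whole interval lay within 1 log2 unit of no difference, and among the 12814 genes whose log2 CPM averaged 1 or more this held for 10701 (83.5%). Point estimates exceeded 1 log2 unit in 954 genes, 164 of them in genes of that higher level. For the other genes, apart from 12 without an interval, it reached past a 2-fold difference in at least 1 direction, so a difference of that size is not excluded for them.

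Genes that respond to loss of MBD3 were then followed in the rescue lines. *Mbd3* KO and WT libraries are not shared with the rescue comparison, although all 4 lines enter one fit. The KO raised 3248 genes (median log2 change 2.15) and lowered 2361 (median −1.80). Of these 5609 genes, 4483 (79.9%) had an interval for MBD3ΔMBD against MBD3a that lay inside the size of their own KO change, and 2185 (39%) had one inside 50% of it. Genes raised by the KO had a median difference of −0.32 in MBD3ΔMBD, with 698 higher and 2538 lower. Genes lowered by the KO had a median of 0.17, with 1766 higher and 595 lower. Both medians have the opposite sign to the KO change. Nominal differences were 19 higher and 126 lower among the 3248 genes raised by the KO. They were 50 higher and 37 lower among the 2361 genes it lowered, leaving 418 nominal genes outside the KO response. Over all tested genes, 1.6% were nominal and higher and 2.32% nominal and lower, 3.92% together.

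**Figure D2:**
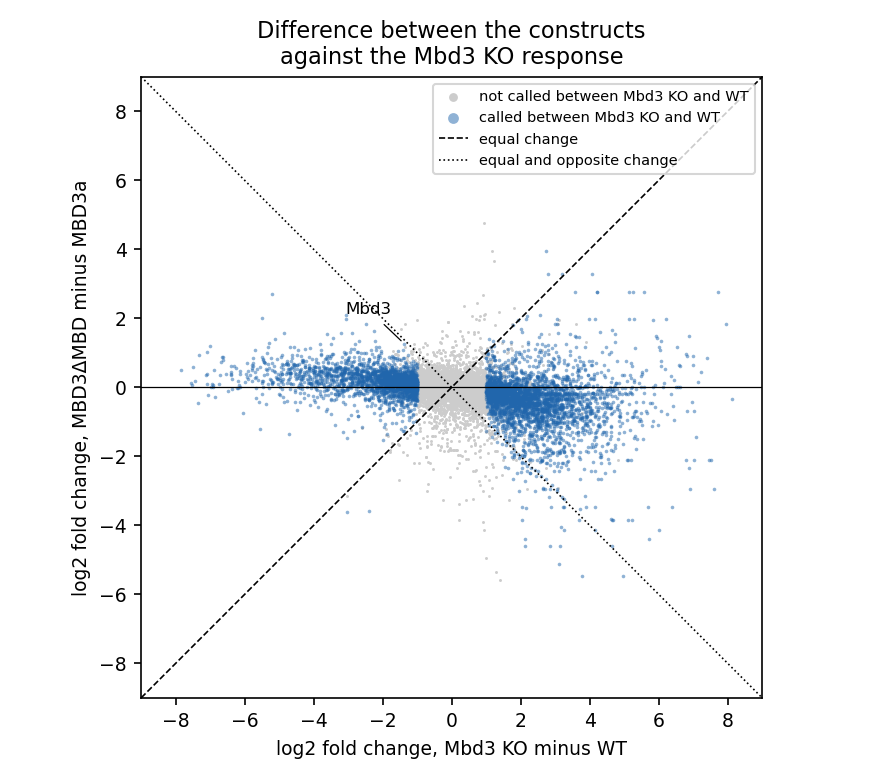
Difference between MBD3ΔMBD and MBD3a (log2, vertical axis) against the change in *Mbd3* KO over WT (log2, horizontal axis) for all tested genes, blue where called in the KO and grey where not, with a dashed line for an equal and a dotted line for an opposite change. Among the blue points the KO changes have medians of 2.15 and −1.80, while the differences between the rescue lines have medians of −0.32 and 0.17, so the cloud lies flat and tilts towards the dotted line.

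Each library was placed on a scale from the mean of WT (0%) to the mean of the *Mbd3* KO (100%), by the mean log2 CPM of genes the KO raised minus that of genes it lowered. MBD3a libraries lay at −3.81%, 12.9% and −0.945%. MBD3ΔMBD libraries lay at −0.889%, −12.1% and −9.76%. All 6 were near WT, whose own clones spread over −14.4%, −1.76% and 16.2%, and far from the KO clones at 93.5% to 111.9%. The groups overlapped at one MBD3ΔMBD clone, s10, which lay beside s09. The mean was 2.73% ± 8.96 (SD, n = 3) in MBD3a and −7.59% ± 5.93 (SD, n = 3) in MBD3ΔMBD, a difference of −10.3 percentage points (two-sided exact permutation test, p = 0.3, with 0.1 the smallest that 3 against 3 can give). Without s08, the MBD3a clone nearest the KO side, the difference was −5.22 points.

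**Figure D3:**
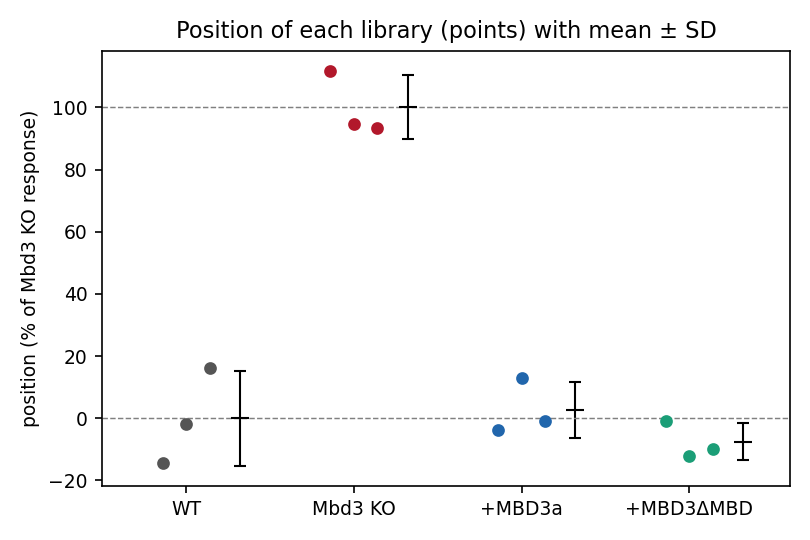
Position of each library between the mean of WT (0%) and the mean of *Mbd3* KO (100%) over the genes called in the KO, each point a library, with the mean and SD (n = 3) beside each group and dashed lines at 0% and 100%. The 6 rescue libraries lie between −12.1% and 12.9%, within the spread of the WT clones, and the KO libraries at 93.5% and above.

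The partners of MBD3 in NuRD were measured first among the gene groups. All 20 listed subunit genes were tested, 10 were higher and 10 lower, and the median was −0.01 beside 0.00 over all genes. Only *Mbd3*, whose count includes the construct, and *Hdac2* were nominal, both higher (10%, beside 1.6% of all genes). Apart from *Mbd3* the share therefore rests on *Hdac2* alone. *Hdac2*, which encodes a deacetylase subunit, stood at 297, 254 and 260 CPM in MBD3a and at 319, 350 and 335 CPM in MBD3ΔMBD. The groups did not overlap, and the log2 difference was 0.31 (SE 0.13, edgeR adjusted p = 0.989). *Hdac2* is also lowered in the KO (log2 change −1.23). *Chd4*, the remodelling ATPase, held 1016, 878 and 1138 CPM against 1076, 1046 and 1145 CPM. These ranges overlapped and the difference was 0.11 with an interval of −0.29 to 0.51. The histone-binding subunit gene *Rbbp4* differed by 0.04 and the deacetylase gene *Hdac1* by −0.01. Among the MTA scaffold genes, *Mta1* differed by −0.11, *Mta2* by 0.03 and *Mta3* by −0.36. *Gatad2a* and *Gatad2b*, which link CHD4 to the deacetylase part, differed by −0.06 and −0.03. *Mbd2*, whose protein takes the place of MBD3, was at 47.3, 38.9 and 36.5 CPM in MBD3a and at 35.4, 38.3 and 35.5 CPM in MBD3ΔMBD, which overlapped (−0.17, interval −0.61 to 0.28). Differences of the subunit genes other than *Mbd3* ranged from −0.55 for *Sall4*, a zinc finger factor that binds NuRD, to 0.33 for the remodeller gene *Chd3*.

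Readers of methylated CpG and the enzymes that write and remove the mark formed a list of 17 genes. None was nominal, the median was 0.05, and 15 intervals lay within 1 log2 unit. The largest difference was −1.76 for *Dnmt3l* (interval −4.75 to 1.23). Its groups overlapped, and its highest value in the rescue lines was 3.35 CPM in s08. *Mbd4*, a glycosylase with an MBD domain, overlapped between the lines and differed by −0.15 (interval −0.47 to 0.17). *Mbd1*, a repressor that binds methylated CpG, was at 34, 34.2 and 33.7 CPM in MBD3a and at 36.6, 36.2 and 38.5 CPM in MBD3ΔMBD. These groups did not overlap, and the difference was 0.13 (interval −0.09 to 0.34). The maintenance methyltransferase gene *Dnmt1* overlapped between the lines and differed by −0.03 (interval −0.33 to 0.27).

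Neural progenitor genes were close in level with and without the domain. Of 28 tested, 24 are lowered in the *Mbd3* KO, and none was nominal between the rescue lines, with a median of 0.09. *Pax6*, a transcription factor of the neural tube, was at 140, 134 and 128 CPM in MBD3a and at 140, 139 and 118 CPM in MBD3ΔMBD. In the KO it was at 3.52 to 14.1 CPM. The values of the rescue lines overlapped, and the log2 difference was −0.02 (interval −0.91 to 0.86). The Notch effector *Hes5* differed by 0.01, the intermediate filament gene *Nes* by 0.21 and the radial glia gene *Fabp7* by 0.35. Intervals of 16 of the 28 lay within 1 log2 unit.

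Proneural transcription factors, which start neurogenesis, had a median of 0.13, with members from −1.36 to 0.96. Intervals lay within 1 log2 unit for only 12 of 26, so a larger difference is not excluded for the others. *Neurog1* held 141, 116 and 97.0 CPM in MBD3a and 112, 125 and 109 CPM in MBD3ΔMBD, against 1.03 to 1.96 CPM in the KO. The rescue lines overlapped (log2 difference −0.03, interval −0.94 to 0.87). *Neurog2* differed by 0.07 and *Neurod4* by 0.13. Of 26 genes in this list, 21 are lowered in the KO and 1 was nominal here (3.85%, beside 2.32% of all genes nominal and lower). That gene, *Olig3*, a factor of dorsal progenitors, was at 12.1, 30.7 and 29.8 CPM in MBD3a and at 20.6, 3.45 and 5.01 CPM in MBD3ΔMBD. The groups overlapped, since s10 lay between the MBD3a values, and the difference was −1.36 (edgeR adjusted p = 0.989).

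Genes of postmitotic neurons had higher means in MBD3ΔMBD without passing the test. Of 33 tested, 32 had a higher mean and 1 a lower one, and the median log2 difference was 0.50 beside 0.00 over all genes. Only 1 was nominal, in the higher direction (3.03%, beside 1.6% of all genes). *Tubb3*, a neuronal tubulin, was at 1056, 821 and 776 CPM in MBD3a and at 1067, 1485 and 1355 CPM in MBD3ΔMBD. All MBD3ΔMBD values were above all MBD3a values, by 0.56 at the mean (interval −0.19 to 1.31). *Mapt*, which encodes the protein tau, was at 94.5, 35.4 and 45.5 CPM against 43.3, 131 and 149 CPM and overlapped (0.89, interval −0.25 to 2.02). *Dcx*, *Map2* and *Gad2* differed by 0.77, 0.60 and 1.00. The summed level of the list ran from 4721 to 7135 CPM in MBD3a and from 5948 to 9313 CPM in MBD3ΔMBD, so s07 exceeded s10. The median lay between 0.28 without s12 and 0.72 without s07. WT clones ranged as widely, with *Tubb3* at 1161, 866 and 588 CPM.

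Of *Cd24a* and *Ncam1*, genes of surface proteins that mark committed progenitors, only *Cd24a* was nominal. It stood at 547, 456 and 457 CPM in MBD3a and at 583, 671 and 669 CPM in MBD3ΔMBD, with no overlap. The log2 difference was 0.40 (SE 0.18, edgeR adjusted p = 0.989), and *Cd24a* is lowered in the KO (log2 change −1.14). *Ncam1*, the gene of CD56, was at 217, 138 and 170 CPM against 177, 225 and 295 CPM. These overlapped, and the difference was 0.41 (interval −0.47 to 1.28).

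**Figure D4:**
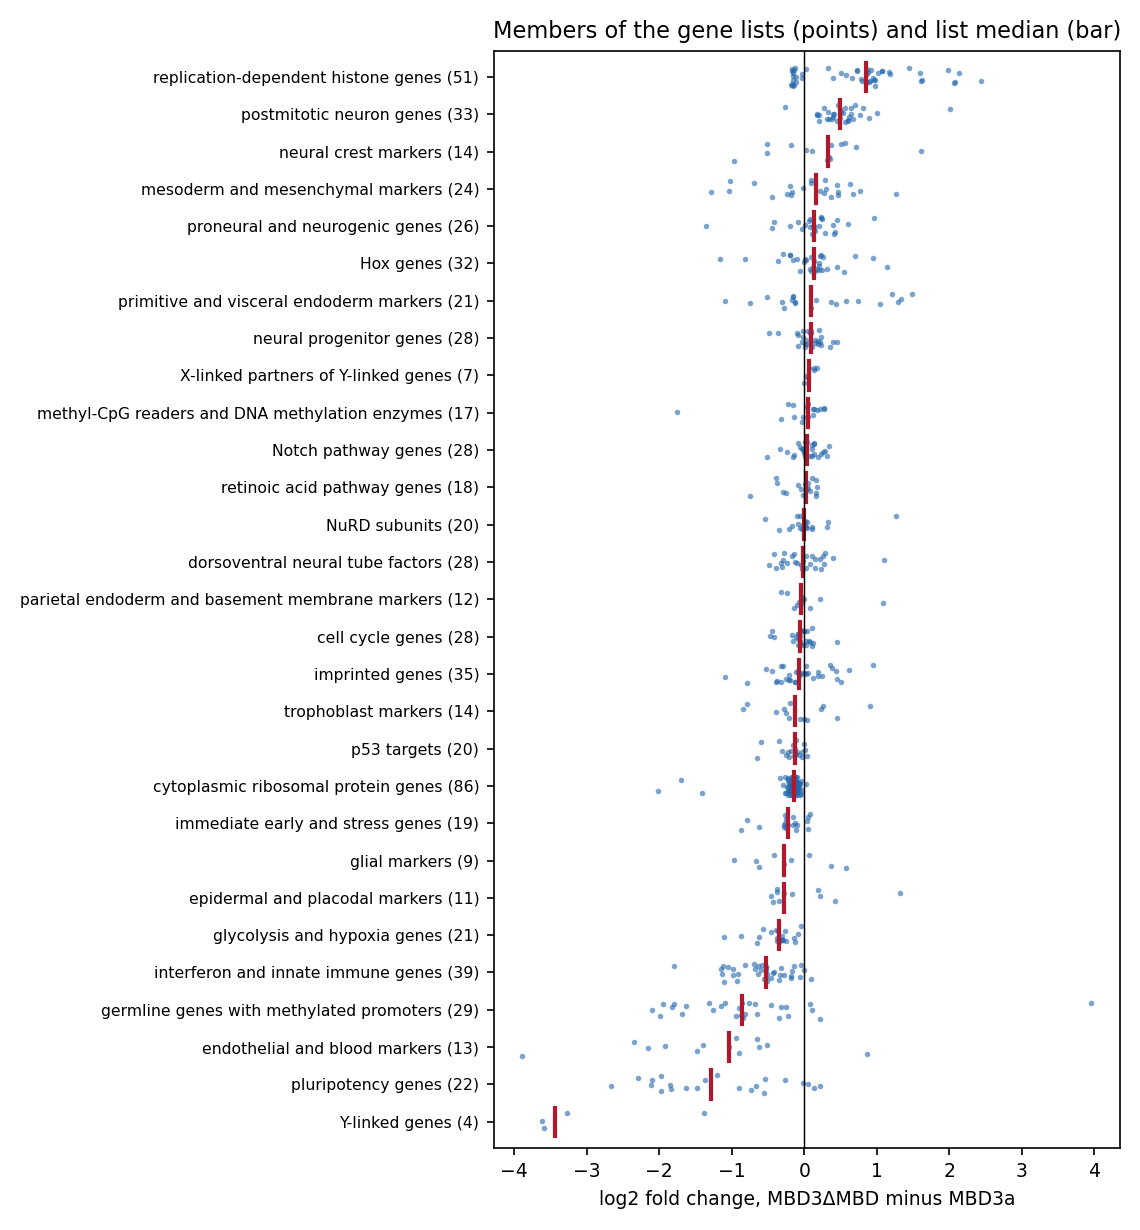
Log2 difference between MBD3ΔMBD and MBD3a for the tested members of each gene list, each point a gene and each bar the list's median. Medians lie near 0 for NuRD subunits, progenitor and proneural genes, at 0.50 for neuron genes and at 0.85 for replication-dependent histone genes, and below 0 for pluripotency, germline, interferon, endothelial and Y-linked genes.

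Pluripotency, germline and interferon genes, which the KO raises, had lower means in MBD3ΔMBD, and the median of each list moved towards 0 without the MBD3a clone s08. Pluripotency genes had a median of −1.29 over 22 genes, with 3 higher and 19 lower and none nominal. *Nanog* was at 0.848, 25 and 5.10 CPM in MBD3a and at 4.78, 0.978 and 0.998 CPM in MBD3ΔMBD. *Pou5f1*, which encodes OCT4, was at 10.2, 28.8 and 9.86 CPM against 10.5, 4.63 and 4.09 CPM. Both overlapped between the lines, with s08 the highest for both, and their KO levels were 40.3 to 164 CPM and 55.0 to 176 CPM. The log2 differences were −2.29 (interval −5.06 to 0.48) and −1.37 (interval −3.07 to 0.32), while *Klf4* differed by 0.13. Without s08 the list's median was −0.34.

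Germline genes silenced by promoter methylation are known targets of DNA methylation, and 19 of the 29 listed are raised in the KO. Between the rescue lines none was nominal, 4 were higher and 25 lower, and the median was −0.86, or −0.28 without s08. *Dazl*, an RNA-binding protein of germ cells, was at 0.848, 5.74 and 1.63 CPM in MBD3a and at 2.03, 0.345 and 0.243 CPM in MBD3ΔMBD, against 29.9 to 47.1 CPM in the KO. The germ-cell transcription factor gene *Sohlh2* was at 1.70, 7.69 and 1.87 CPM against 2.33, 0.546 and 0.608 CPM. Both had overlapping groups and their highest value in s08, with log2 differences of −1.82 and −1.80. No MBD3ΔMBD library reached the KO level of either gene.

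Interferon and innate immune genes were lower in 38 of 39 members, with a median of −0.53 (−0.21 without s08), and 36 of them are raised in the KO. Their summed level was 383, 441 and 339 CPM in MBD3a and 332, 308 and 269 CPM in MBD3ΔMBD, which did not overlap. A single member was nominal (2.56%, beside 2.32% of all genes nominal and lower). It was the class I antigen gene *H2-K1*, at 77.2, 75.9 and 69.5 CPM against 56.8, 56.0 and 41.2 CPM (−0.53, named after its values were seen). *Oasl2*, an interferon-induced synthetase relative, was at 6.39, 15.0 and 4.51 CPM against 6.61, 3.05 and 2.55 CPM, which overlapped (−1.12). *Isg15* and *Ifit1* lay below 3 CPM in all 6 libraries.

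Genes named for the smallest unadjusted p without overlap were next described, first those lower in MBD3ΔMBD. *Helz2*, a helicase that acts as a nuclear receptor coactivator, was at 9.20, 10.7 and 9.72 CPM in MBD3a and at 5.39, 3.51 and 4.11 CPM in MBD3ΔMBD. WT libraries were at 7.09 to 12.1 CPM and the KO at 58.9 to 60.5 CPM. The rescue lines did not overlap (log2 difference −1.20, SE 0.27, edgeR adjusted p = 0.392). *Shfl*, an inhibitor of viral frameshifting that overlaps *Angptl6* on the other strand, was at 10.9, 9.64 and 6.87 CPM against 4.09, 4.66 and 3.99 CPM. This pair of groups did not overlap either (−1.11, SE 0.23, adjusted p = 0.392). Another class I antigen gene, *H2-Q7*, was at 21, 23.4 and 24.1 CPM against 15.4, 16.8 and 11.5 CPM (−0.65). DESeq2 called *Helz2* and *Shfl*.

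*Ccn1*, a matrix-associated signalling protein, held 91.6, 92.8 and 87.9 CPM in MBD3a and 69.6, 63.2 and 51.7 CPM in MBD3ΔMBD, with no overlap (−0.56, SE 0.13, edgeR adjusted p = 0.392). *Hhat*, the acyltransferase that modifies Hedgehog proteins, differed by −0.74, and the phosphodiesterase gene *Pde4c* by −0.89. In the other direction, the actin-severing factor gene *Cfl2* was at 237, 215 and 219 CPM against 267, 298 and 286 CPM (0.34), and *Upf3b*, of nonsense-mediated decay, at 42.5, 43.7 and 44.1 CPM against 61.3, 58.3 and 48.5 CPM (0.37). The rule that named the genes of this and the previous paragraph required that groups not overlap, so the lack of overlap is no finding.

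Replication-dependent histone genes were, by number, the list with the most nominal genes. Of 51 tested, 36 were higher and 15 lower, and 21 were nominal, all of them higher in MBD3ΔMBD (41.2%, beside 1.6% of all genes). The median was 0.85, and 33 lay wholly higher with no overlap between the lines, as did 6.22% of all genes. With each library left out in turn, 14 to 20 were nominal and the median was 0.66 to 0.91. These mRNAs end in a conserved stem-loop in place of a poly(A) tail. The gene's own strand was searched for the stem-loop letters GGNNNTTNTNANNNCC in the last 400 bases of each gene and 50 bases beyond. They were present in 36 of the 51 histone genes (70.6%) and in 130 of all 16582 tested genes (0.784%). Matches from 4 genes are shown in capitals, from mm9, because they let nearly identical 3′ ends be set beside unlike values. They come from chr13:23713651-23713666 (*H1f4*, minus strand), chr13:23844689-23844704 (*H3c2*, plus), chr13:22135507-22135522 (*H2bc11*, plus) and chr13:23843441-23843456 (*H2ac4*, plus, named after its values were seen).
H1f4: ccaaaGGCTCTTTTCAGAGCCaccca
H3c2: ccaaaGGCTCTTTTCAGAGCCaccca
H2bc11: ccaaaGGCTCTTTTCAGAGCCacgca
H2ac4: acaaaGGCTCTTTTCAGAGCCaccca

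*H1f4*, a linker histone gene, was at 1.60, 1.64 and 1.53 CPM in MBD3a and at 4.62, 7.53 and 7.66 CPM in MBD3ΔMBD. The groups lay far apart (log2 difference 2.07, SE 0.41, edgeR adjusted p = 0.392), and DESeq2 called the gene. *H3c2* was at 1.53, 2.15 and 2.22 CPM against 4.28, 7.04 and 6.57 CPM (1.61). *H2bc11* was at 1.60, 1.98 and 1.70 CPM against 3.63, 3.97 and 4.19 CPM (1.16). *H2ac4* was at 352, 432 and 375 CPM against 416, 371 and 245 CPM and overlapped (−0.17). The 15 lower members were *H1f2* and H2A genes, whose near-identical copies can share reads. Because those copies hold most of the counts, the list's sum was 4443 ± 510 CPM in MBD3a and 4077 ± 1001 CPM in MBD3ΔMBD (SD, n = 3, exact permutation test, p = 0.7), the opposite sign to its median. Among histone genes the median was 0.88 with a match in the searched window and 0.03 without one. Nominal genes were nevertheless 15 of 36 with a match and 6 of 15 without. A gene without a match may still carry the stem-loop, since only its annotated end was searched. Over all 130 tested genes with the letters the median was 0.04.

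Among other RNA without a poly(A) tail, the 7SK RNA was higher in the same libraries. *Rn7sk*, which restrains transcription elongation, was at 12, 7.49 and 8.71 CPM in MBD3a and at 29.9, 75.5 and 75.6 CPM in MBD3ΔMBD (log2 difference 2.69, SE 0.72, edgeR adjusted p = 0.828). Annotated snRNA, snoRNA, rRNA and miscellaneous small RNA genes summed to 68.4, 71.9 and 79.4 CPM against 103.2, 141.6 and 143.0 CPM. These sums did not overlap (ratio of means 1.77, exact permutation test, p = 0.1, the smallest possible), but *Rn7sk* made up most of the gap. Without it, a setting chosen after seeing the data, they were 56.4, 64.4 and 70.6 CPM against 73.4, 66.0 and 67.4 CPM and overlapped (ratio 1.08, exact permutation test, p = 0.4). Tested snoRNA genes had a median of 0.04, with 55 of 101 higher. One *Mbd3* KO clone, s04, also stood apart from its line, with 288.6 CPM in the full sum beside 61.3 and 63.8 CPM, 220.2 CPM without *Rn7sk* beside 56.3 and 58.4 CPM, 68.4 CPM of *Rn7sk* beside 4.96 and 5.4 CPM, and 4.72 CPM of *H1f4* beside 1.44 and 1.19 CPM. The full sum was 67.0 to 96.1 CPM in WT. The part of RNA without a tail in the histone difference was not tested.

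**Figure D5:**
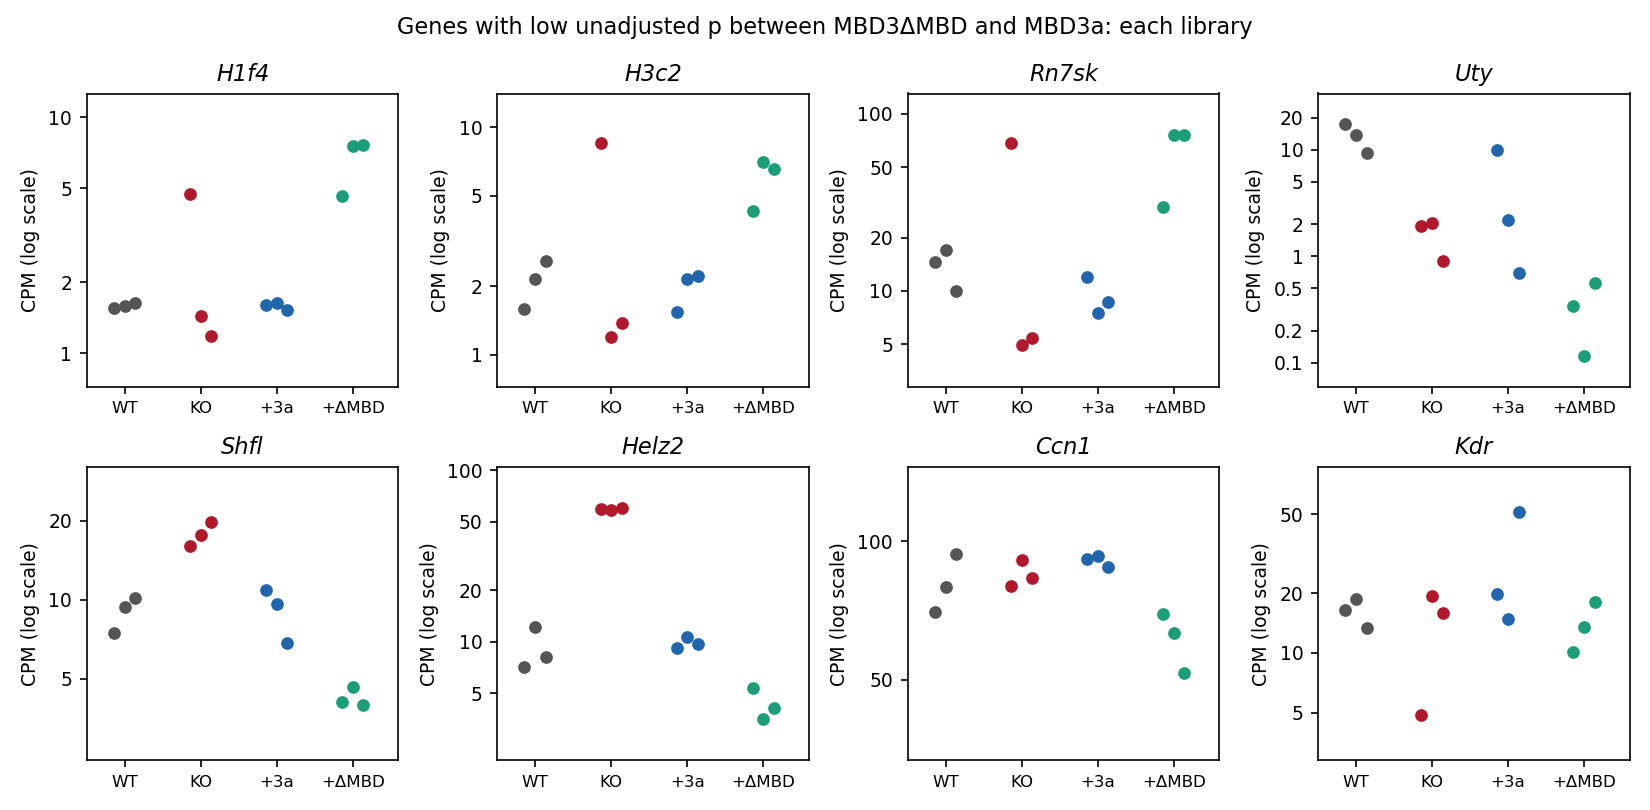
CPM on a log axis of *H1f4*, *H3c2*, *Rn7sk*, *Uty*, *Shfl*, *Helz2*, *Ccn1* and *Kdr* in each library of WT, *Mbd3* KO, MBD3a and MBD3ΔMBD progenitors, each point a library. The first 3 are higher in all MBD3ΔMBD libraries and in 1 KO library, *Uty* is spread over the MBD3a clones from 0.694 to 10.0 CPM, and *Kdr* is high in 1 MBD3a clone at 51.3 CPM.

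Y-linked genes had lower means in MBD3ΔMBD and spread widely among the MBD3a clones. *Uty*, a histone demethylase relative, was at 10.0, 2.19 and 0.694 CPM in MBD3a and at 0.344, 0.115 and 0.560 CPM in MBD3ΔMBD, with 9.25 to 17.6 CPM in WT. *Ddx3y*, an RNA helicase, was at 6.82, 1.74 and 0.486 CPM against 0.268, 0.144 and 0.487 CPM. *Eif2s3y*, a translation initiation factor, was at 10.7, 1.67 and 0.451 CPM against 0.535, 0.259 and 0.316 CPM. The groups overlapped at s09 for *Ddx3y* and *Eif2s3y* but not for *Uty*, and s07 was the highest of the 6 libraries for all of these genes. *Uty* differed by −3.62 (edgeR adjusted p = 0.392) and by −2.03 without s07, and the list's median of −3.43 over 4 genes became −1.71 without it. The X-linked partners of these genes had a median of 0.06, with all 7 intervals within 1 log2 unit, and *Xist* was at or below 0.174 CPM in all 6 libraries.

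By number, endothelial and blood markers were the list with the most nominal genes in the lower direction, and their median was −1.03. The nominal genes were 8 of 13 (61.5%, beside 2.32% of all genes). By share the Y-linked list was higher, with 3 of 4 nominal and lower (75%). *Kdr*, the VEGF receptor FLK1, was at 19.7, 14.9 and 51.3 CPM in MBD3a and at 10.1, 13.6 and 18.1 CPM in MBD3ΔMBD. *Tek*, the angiopoietin receptor, was at 2.05, 1.67 and 9.27 CPM against 1.64, 1.35 and 1.65 CPM. *Cd34*, a surface protein of these cells, was at 16, 13.5 and 32.4 CPM against 8.68, 12.5 and 11 CPM. In each, s09 stood above the other 5 libraries of the rescue lines. The embryonic globin gene *Hba-x*, named after its values were seen, reached 2.60 CPM in s09 and at most 0.171 CPM in the other 5. Without s09 none of the 13 was nominal and the median was −0.37.

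The same clone differed along chromosome 19. In s09 the median gene of chromosome 19 lay 0.248 above the mean of the other two MBD3a clones on the log2 scale, against −0.032 to 0.029 for the same measure in the MBD3ΔMBD clones. Of 547 tested genes on this chromosome, 32 (5.85%, beside 3.92% of all genes) were nominal, 30 lower and 2 higher in MBD3ΔMBD. With the chromosome left out, 0 genes were called by edgeR and 616 were nominal.

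Remaining cell types and programmes gave small or uncertain differences. Visceral endoderm markers had a median of 0.10, parietal endoderm −0.04, mesoderm and mesenchyme 0.15, neural crest 0.33, trophoblast −0.13, epidermis −0.28 and glia −0.28. Every median given in this paragraph, other than those of neural crest and epidermis, turned sign under at least 1 alternative setting. In all, 4 genes of these 7 lists were nominal. All were among the 24 mesoderm genes, 3 lower (12.5%, beside 2.32% of all genes), *Kdr* among them, and 1 higher (4.17%, beside 1.6%). Patterning genes had medians of −0.02 for dorsoventral factors, 0.13 for Hox genes, 0.02 for the retinoic acid pathway and 0.03 for the Notch pathway. Hox members ran from −1.16 to 1.14. Intervals lay within 1 log2 unit for 10 of 28 dorsoventral, 9 of 32 Hox, 12 of 18 retinoic acid and 26 of 28 Notch genes. In the Notch list the ligand gene *Dll4* was the nominal one (−0.51), 3.57% of that list beside 2.32% of all genes nominal and lower. Imprinted genes had a median of −0.08, and none of 35 was nominal. Cell cycle genes had a median of −0.06, with 25 of 28 intervals within 1 log2 unit.

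All 21 glycolysis and hypoxia genes had a lower mean (median −0.35), although 1 was nominal (4.76%, beside 2.32% of all genes nominal and lower). Without s07 the median was −0.13. *Slc2a1*, the glucose transporter GLUT1, was at 1189, 1176 and 1118 CPM in MBD3a and at 974, 650 and 645 CPM in MBD3ΔMBD, without overlap (−0.62, interval −1.25 to 0.01). *Ddit4*, an inhibitor of mTOR signalling, was at 423, 256 and 265 CPM against 183, 199 and 220 CPM, also without overlap (−0.65). Targets of p53 were lower in 18 of 20 (median −0.13) and summed to 1856, 1850 and 1845 CPM against 1707, 1611 and 1615 CPM. Immediate early genes were lower in 15 of 19 (median −0.23), with *Junb*, a subunit of AP-1, at 30.9, 27.2 and 31 CPM against 16.1, 16.6 and 19 CPM. Ribosomal protein genes were lower in 85 of 86 by a median of −0.15, none of them nominal, and their sums overlapped at 57783 to 66876 CPM and 46258 to 64193 CPM.

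Lastly, the promoters of the genes were compared, since the removed domain is a relative of methyl-CpG readers. CpG content was taken as observed over expected CpG in the window from 250 bases before to 50 bases after each annotated gene start in mm9. Over all tested genes its median was 0.686, over nominal genes higher in MBD3ΔMBD 0.627, and over nominal genes lower 0.548. Genes whose log2 CPM averaged 1 or more were split into 4 groups of equal size. From the fewest to the most CpG, the share of nominal genes was 4.53%, 3.65%, 2.50% and 2.18%. The share called in the *Mbd3* KO followed the same order, at 38.7%, 29.9%, 21.6% and 17.7%. The median difference was between −0.02 and 0.03 in every group. Intervals within 1 log2 unit made up 69.0% of genes in the group with the fewest CpG and 92.1% in the group with the most.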

How the data were processed

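Poly(A) RNA of day 8 NPCs was sequenced single-end by the authors from a directional kit on a NovaSeq. Reads were trimmed with Trim Galore 0.6.6 and aligned with STAR to mm9, and the authors deposited 1 table of raw read counts per gene, made with QuasR and GENCODE annotation. Whether counting used strand is not given in the sources used here, so values of genes that overlap a neighbour on the other strand may hold its reads.

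Here the counts were tested with edgeR 4.0.16 in R 4.3.3. Genes were kept by filterByExpr, scaled by TMM and fitted with a quasi-likelihood model over all 24 libraries, which share one estimate of spread. The contrast was MBD3ΔMBD minus MBD3a, with Benjamini-Hochberg adjustment over the 16582 genes tested. A gene was called at an adjusted p under 0.05 with a log2 fold change over 1 in size. Intervals are 95% and use the model's own standard error. Counting depth was 27993858 to 43033788 reads in these 6 libraries. At that depth, without the TMM scaling used for the CPM of genes, 3 counts equal 0.0697 to 0.107 CPM, the limit that a count of 0 allows. This limit covers counting error only. Libraries of the lines compared here are separate clones, but the paper states that the 3 MBD2t libraries came from 1 clone. The shared estimate therefore mixes spread among clones with spread within 1 clone. Without MBD2t in the edgeR fit, 0 genes were called, 503 were nominal and the smallest adjusted p was 0.818, beside 0.392 with it. No 2 libraries agreed within sampling noise. The script was tested on simulated counts. No deposited column went unused.

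Position was the mean log2 CPM (prior count 1) of genes raised in the KO minus that of genes lowered in it, expressed as a percentage of the distance between the average WT and average KO library. Some genes are not reported here. Proteins were translated from mm9 transcripts and aligned with Biopython 1.88 (BLOSUM62, gap costs 11 and 1). A RefSeq promoter table held only 75.6% of the tested genes, so that check is void and windows of the same size were read from mm9. Gene lists, 29 in all, and the genes named were chosen with earlier results of these data known. Genes were named if called, or else by the smallest unadjusted p (up to 10 each way, mean log2 CPM at least 1, no overlap), by being among the first 4 or the 3 most different members of a list, or as NuRD subunits and lineage markers. Exceptions are stated where they occur. Alternatives were other scalings, filters, tests, sets of libraries and thresholds, DESeq2 1.42.0 among them, and their effect closes the text. The other lines of the series and the chromatin samples were not analysed here.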

Additional observations from a re-analysis of the deposited data

How the results depend on the processing

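No paired analysis was possible because the columns of the count table carry library numbers and no replicate numbers. The count of called genes was 0 under every setting tried except 3. It was 1, *Mbd3*, with only the MBD3a and MBD3ΔMBD libraries in the fit, 12 with DESeq2 (8 of them in the gene lists, against 1 for the fit with those 6 libraries), and 215 with an unadjusted p in place of the adjusted one. The *Mbd3* log2 difference was 1.25 in the first of these and 1.26 in DESeq2, past the threshold in both, and lay between 1.18 and 1.31 when single libraries were left out, not past it. With the 6 libraries and edgeR's legacy fit, chosen after seeing the data, *Mbd3* had an adjusted p of 0.0559. The cause of these changes was not tested. Leaving out single libraries gave 0 called genes and 0 called list members each time, 10420 to 10831 genes with an interval within 1 log2 unit, and a position difference of −13.7 to −5.22 points. Nominal genes numbered 1215 in the fit of 6 libraries and from 406 without s12 to 919 without s10. Of the 29 list medians under 10 settings, 277 of 290 values stayed within the spread between libraries, and 4 lists whose median exceeds 0.1 in size turned sign at least once. Of 219 named genes, 20 with a difference over 0.1 in size did. The depth and the spread among 3 clones a line limit what can be seen, since the interval of a gene lay within 1 log2 unit for only 67.8% of genes.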
